A study of Mus musculus with 23 samples.

Results

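The genes described here are 9 transcripts of blood monocytes and their receptors for chemokines: the receptor genes Ccr2, Ccr1 and Cxcr4, the monocyte genes Ly6c2, Plac8, Chil3 and Retnlg, and the S100 genes S100a4 and S100a6. They were taken by symbol from the 33280 genes of the count table, and all 9 were present. The 23 RNA-seq libraries came from brains of Ccr2creERT2/+ R26tdT/tdT mice, in which tamoxifen turns on the red protein tdTomato (tdT) for good in cells that express Ccr2 while the drug is present. BLZ945, an inhibitor of the CSF1 receptor that kills brain macrophages, was gavaged at 200 mg/kg for 7 days, and control (CTL) mice received vehicle. According to the protocol, which the labels give alike for all samples, tamoxifen was given at 2 mg per day around the end of gavage, a thrombin clot was placed in the middle cerebral artery 8 weeks later, and cells were collected 1 day after this stroke. Sorted cells were microglia (MG, CD206-) or subdural CNS-associated macrophages (sdCAMs, the CD206+ macrophages of the leptomeninges and of vessel walls), the latter split into tdT- and tdT+ cells. The groups were MG CTL, MG BLZ945, tdT- CTL and tdT- BLZ945 with 5 libraries each and tdT+ BLZ945 with 3, called by sex and number (F1 to F3, M1 and M2). The question put to these genes was whether sdCAMs that carry the Ccr2 fate label still hold transcripts of the monocyte stage 8 weeks after repopulation.

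Classical monocytes leave the bone marrow through CCR2, the receptor for CCL2, and express Ly6C on their surface. When they enter a tissue and become macrophages, CCR2 and Ly6C are generally lost and genes of the new tissue are switched on. CCR1 binds several inflammatory CC chemokines, and CXCR4, the receptor for CXCL12, holds leukocytes in the marrow and is kept by some tissue macrophages. The S100 genes encode small calcium-binding proteins that many activated myeloid cells share, so that they mark the monocyte stage less narrowly than Ly6c2.

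The design limits what these genes can show. All animals had a stroke, no blood monocyte library was analysed here, and 1 Ccr2 allele of each animal carries the recombinase, whose effect on Ccr2 counts is not given in the sources used here. The label marks only cells that expressed Ccr2 while tamoxifen was present, so that tdT- means unlabelled and not a known origin. BLZ945 libraries pooled cells of 2 mice, except F2, whose name holds 1 animal number, whereas CTL libraries came from 1 mouse each, so that pooling and treatment cannot be told apart. The same animal number also appears in the name of BLZ945 M1, so that F2 and M1 may share a mouse. Libraries with the same sex and number within a treatment came from the same animal or pool. In bulk RNA, fewer cells of a type and less RNA per cell cannot be told apart.

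Libraries held between 9433960 and 13276081 counts, and values are given as CPM, counts scaled by TMM to the same library total. A count of 3 corresponded to between 0.230 and 0.331 CPM, a floor that covers counting error only. The labels of the sorted populations fitted their markers: the summed level of 5 sdCAM markers ran from 8244 to 11052 CPM in tdT+, from 10615 to 13374 CPM in tdT- BLZ945, from 11662 to 14275 CPM in tdT- CTL and from 9.85 to 47.5 CPM in MG, and that of 5 microglial markers from 14444 to 22144 CPM in MG and from 1097 to 2246 CPM in sdCAMs. The sdCAM marker sum of tdT+ F3 and M2 (8804 and 8244 CPM) was below that of every tdT- library. Of these markers Cd163, a scavenger receptor, was called lower in tdT+ than in tdT- BLZ945 and tdT- CTL sdCAMs, with log2 fold changes of -2.07 (edgeR adjusted p = 0.00117) and -2.27 (edgeR adjusted p = 0.000532). Transcripts of Gt(ROSA)26Sor, the locus that holds the reporter, were counted 436, 427 and 295 times in tdT+ F2, F3 and M2 and between 47 and 99 times in tdT- libraries. One library stood apart for the genes described here. Among the 13 sdCAM libraries, tdT- BLZ945 F1 held the highest level of 7 of the 9 genes (77.8%), all but Ccr1 and Cxcr4, whereas it was the highest library for 5.85% of all genes. Test results for the 9 genes that rest on it are given with and without it, whereas values of other genes include it.

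Promoter sequences are shown for the genes on which the results turn. Ccr2 is the locus of the fate label, and Ccr1 is the receptor that separated sdCAMs from MG with the lowest p in the main edgeR fits. Ly6c2 was almost unread, and the BLZ945 and CTL sdCAM levels of S100a6 did not overlap. Each sequence is the 250 bases upstream of the start site in RefSeq on GRCm38.p6, 5′ to 3′ on the strand of the gene. Their places are chr9:124101933-124102182 on the plus strand for Ccr2, chr9:123968693-123968942 on the minus strand for Ccr1, chr15:75111972-75112221 on the minus strand for the first of 2 Ly6c2 starts, and chr3:90612644-90612893 on the plus strand for S100a6. Capitals mark GAGGAA on either strand, the core bound by PU.1, a factor of all myeloid cells.
Ccr2: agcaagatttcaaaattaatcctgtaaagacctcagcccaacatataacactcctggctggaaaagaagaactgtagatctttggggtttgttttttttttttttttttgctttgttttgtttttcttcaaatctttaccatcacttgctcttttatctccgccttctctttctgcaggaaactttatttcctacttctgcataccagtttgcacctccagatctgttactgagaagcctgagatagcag
Ccr1: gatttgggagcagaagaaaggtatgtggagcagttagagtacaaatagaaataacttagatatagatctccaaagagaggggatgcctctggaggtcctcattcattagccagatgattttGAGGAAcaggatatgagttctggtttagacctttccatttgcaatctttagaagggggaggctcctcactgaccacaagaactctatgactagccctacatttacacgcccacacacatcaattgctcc
Ly6c2: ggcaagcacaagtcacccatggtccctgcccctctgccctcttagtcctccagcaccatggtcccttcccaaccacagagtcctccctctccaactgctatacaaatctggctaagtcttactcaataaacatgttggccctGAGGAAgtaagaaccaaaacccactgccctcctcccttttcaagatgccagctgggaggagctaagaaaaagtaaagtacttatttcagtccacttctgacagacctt
S100a6: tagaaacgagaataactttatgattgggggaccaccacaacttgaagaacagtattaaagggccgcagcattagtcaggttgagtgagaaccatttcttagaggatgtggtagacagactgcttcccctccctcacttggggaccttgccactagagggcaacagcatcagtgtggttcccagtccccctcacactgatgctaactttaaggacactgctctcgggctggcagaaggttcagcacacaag
The match lies 129 bases before the start in Ccr1 and 108 bases before it in Ly6c2. The 9 genes have 11 such windows, since Ly6c2 and Plac8 have 2 each. GAGGAA was found in 4 of the 11 (Ccr1, both of Ly6c2, which overlap and share a match, and 1 of Plac8), or in 3 of the 9 genes, beside 23.3% of 32851 mouse promoter windows. TGANTCA, the AP-1 motif, was found in 0 of 11 beside 6.75%, and TTGCNNAA, a C/EBP motif, in 2 of 11 (Plac8 and Retnlg) beside 9.56%. These matches describe the letters only.

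Of the receptors, Ccr2 itself was read in all 3 tdT+ libraries and at widely different levels. In tdT+ sdCAMs it reached 8.10 CPM in F2, 42.9 CPM in F3 and 12.7 CPM in M2. In tdT- BLZ945 sdCAMs it reached 121, 22.7, 8.95, 26.4 and 0 CPM in F1, F2, F3, M1 and M2. In tdT- CTL sdCAMs it reached 9.85, 5.89, 17.9, 11.1 and 11.1 CPM in the same order. The 3 sdCAM groups overlapped, and the extremes of all 13 libraries, F1 at the top and M2 at 0, both lay in tdT- BLZ945. MG held between 2.22 and 10.4 CPM in CTL and between 2.93 and 6.79 CPM in BLZ945.

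Ccr1 was read in all 23 libraries, and every sdCAM library lay above every MG library. Its levels were 842, 793 and 651 CPM in tdT+ F2, F3 and M2. They were 748, 550, 629, 557 and 576 CPM in tdT- BLZ945 F1, F2, F3, M1 and M2, and 504, 354, 692, 824 and 720 CPM in tdT- CTL. Labelled and unlabelled sdCAMs covered overlapping ranges. MG ranged from 15.7 to 92.8 CPM in CTL and from 34.5 to 98.3 CPM in BLZ945.

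Cxcr4 was the steadiest of the receptors in tdT+ sdCAMs, with 22.8, 24.8 and 26.6 CPM in F2, F3 and M2. It lay at 18, 16.6, 16.5, 7.71 and 16.0 CPM in tdT- BLZ945 F1, F2, F3, M1 and M2, all below the tdT+ libraries. In tdT- CTL it lay at 14.2, 20.5, 24.8, 15.5 and 11.5 CPM, which overlapped the tdT+ range. No MG library exceeded 1.19 CPM.

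**Figure D1:**
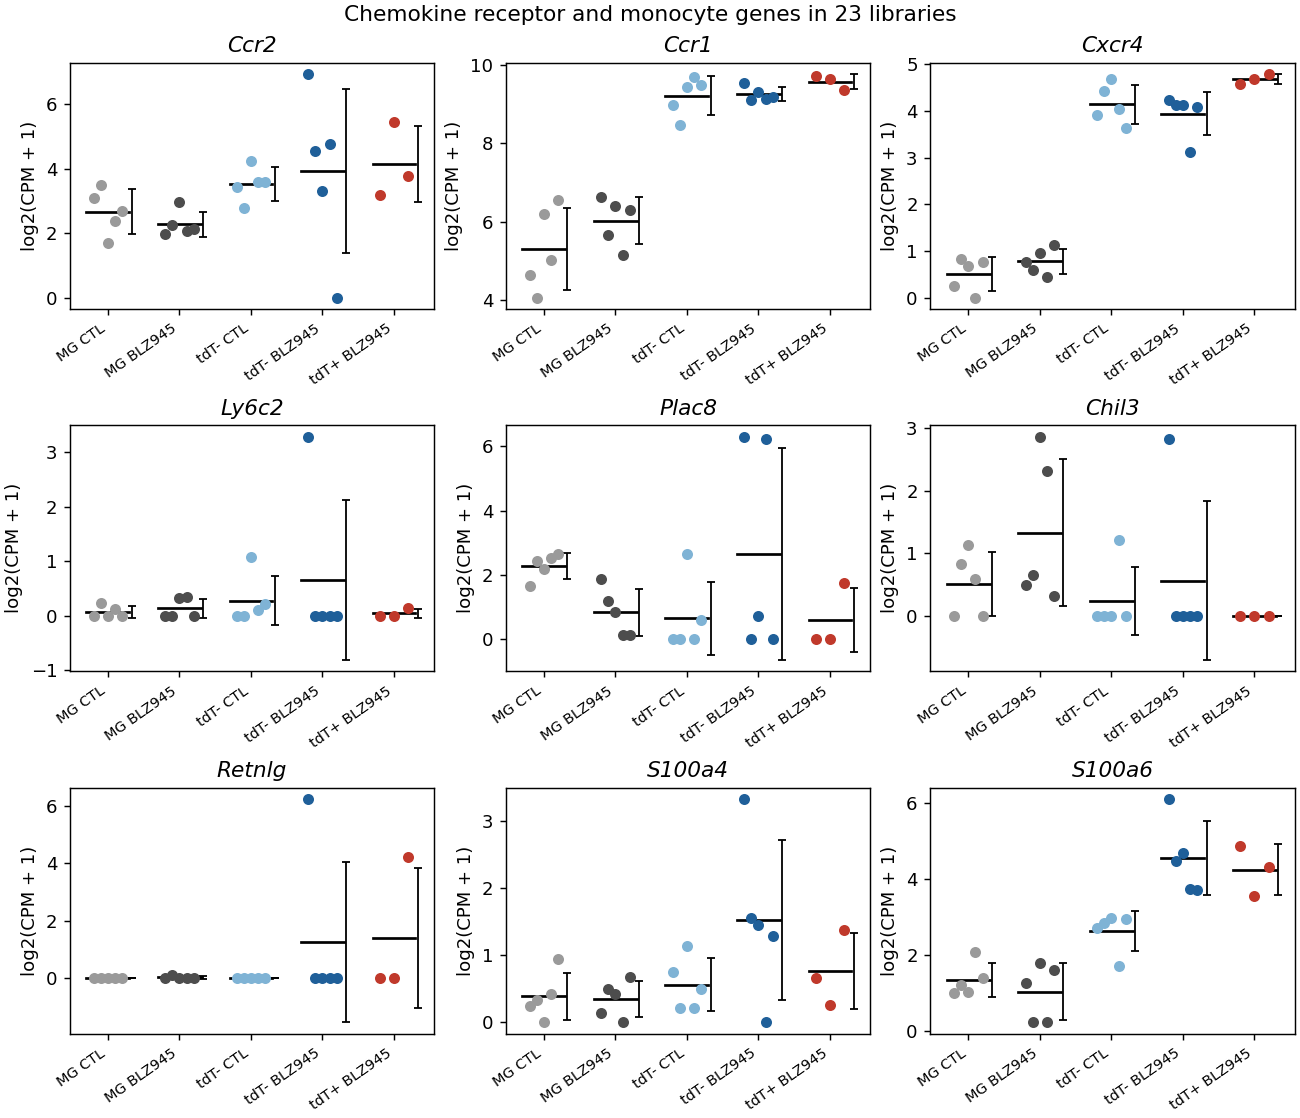
Levels of the 9 genes in the 23 libraries by group, as log2(CPM + 1). Points are libraries, lines are group means and bars are SD. Ccr1 and Cxcr4 separate sdCAMs from MG, S100a6 separates both BLZ945 sdCAM groups from tdT- CTL, and Ly6c2, Chil3 and Retnlg are at or near 0 in most libraries.

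The narrow monocyte genes were nearly unread in tdT+ sdCAMs. Ly6c2, which encodes the Ly6C antigen of classical monocytes, gave 0, 0 and 1 count in tdT+ F2, F3 and M2. In tdT- BLZ945 it gave 82 counts in F1 and 0 in the other 4 libraries, and in tdT- CTL 0, 0, 11, 1 and 2 counts. The gate for CNS-associated macrophages in the study's methods leaves out Ly6C+ cells; its part in the level of Ly6c2 was not tested. Of the 773 windows of 50 bases in the Ly6c2 transcript, 32.6% occur exactly in its neighbour Ly6c1, and how such reads were counted is not given in the sources used here.

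Plac8, a small cysteine-rich protein of monocytes and other leukocytes, was at 0 in tdT+ F2 and F3 and at 2.30 CPM (23 counts) in M2. In tdT- BLZ945 it reached 78.2 CPM in F1 and 73.7 CPM in M1, against 0, 0.633 and 0 CPM in F2, F3 and M2. In tdT- CTL it was at 0 in F1, F2 and M1, at 5.21 CPM in F3 and at 0.487 CPM in M2. High Plac8 was thus confined to 2 of the 13 sdCAM libraries, both of them unlabelled. MG CTL held between 2.10 and 5.28 CPM.

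Chil3, a chitinase-like protein of myeloid precursors, classical monocytes and neutrophils, was at 0 in all 3 tdT+ libraries. It gave 57 counts (6.11 CPM) in tdT- BLZ945 F1 and 17 counts (1.32 CPM) in tdT- CTL M1, and 0 in the other 8 tdT- libraries. Retnlg, a resistin-like secreted protein of neutrophils and some monocytes, was the exception among the narrow genes, at 0, 0 and 17.6 CPM (176 counts) in tdT+ F2, F3 and M2. Its only other reads in sdCAMs were 692 counts (74.1 CPM) in tdT- BLZ945 F1. Of 15 neutrophil genes 11 were at 0 in tdT+ M2, among them S100a8, S100a9, Ly6g and Camp, whereas Mmp9, Csf3r, Il1r2 and Lcn2 gave 1101, 399, 47 and 7 counts, and the list summed to 155 CPM there. The part of other cells in these reads was not tested.

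The S100 genes were read in all or nearly all sdCAM libraries. S100a6 (calcyclin) lay at 28.4, 10.7 and 18.8 CPM in tdT+ F2, F3 and M2 and at 67.6, 21.3, 24.8, 12.3 and 12.1 CPM in tdT- BLZ945 F1, F2, F3, M1 and M2. In tdT- CTL it lay at 5.56, 6.12, 6.82, 2.25 and 6.73 CPM. All 8 BLZ945 sdCAM libraries, labelled or not, were above all 5 tdT- CTL libraries. S100a4, also known as fibroblast-specific protein, was low throughout, at 0.579, 0.198 and 1.60 CPM in tdT+ sdCAMs. It lay at 9, 1.95, 1.72, 0 and 1.43 CPM in tdT- BLZ945 and between 0.155 and 1.20 CPM in tdT- CTL.

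Whether labelled sdCAMs differed from the unlabelled sdCAMs of the same treatment was tested with the edgeR quasi-likelihood test, in a model of the 13 sdCAM libraries, with Benjamini-Hochberg adjustment over 13076 genes. Of the 9 genes, 6 passed the filter on low counts; Ly6c2, Chil3 and Retnlg did not, and Plac8 passed through the tdT- libraries in which it was high. None of the 6 passed an adjusted p of 0.05, 0 had an unadjusted p under 0.05 and DESeq2 called 0, beside a background of 0.206% of all genes (27 genes). The median log2 fold change of the 6 was -0.65, beside -0.02 over all genes tested, but it was 0.24 without F1 and 0.47 with the pair as a block, so that its sign rests on that library. With at least 10 counts in every library 3 of the genes were left, with a median of 0.32.

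Without the pairing, Cxcr4 had the lowest p of the receptors, with a log2 fold change of 0.71 (SE 0.39, 95% interval -0.11 to 1.53, edgeR adjusted p = 0.791). Its groups did not overlap, as was true of 3.4% of all genes. For Ccr1 the log2 fold change was 0.30 (interval -0.17 to 0.76, edgeR adjusted p = 0.906), and for S100a6 it was -0.54 (interval -1.79 to 0.71, edgeR adjusted p = 0.976). Ccr2 gave a log2 fold change of -0.76 with an interval of -3.09 to 1.57, and 0.55 without F1, so that its direction rests on that library. Without F1 the value of S100a6 was 0.11. Plac8, at -5.30 (interval -10.83 to 0.22), and S100a4, at -1.83, had the lowest values, and without F1 these were -4.58 and -0.69. Plac8 passed the filter through tdT- libraries in which it was high, so that little can be read from its value. With the pair as a block, to which F1 and M1 add nothing because they have no tdT+ partner, Plac8 turned to 0.85.

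Within the 3 animals or pools that gave both populations, labelled minus unlabelled cells can be compared on the log2(CPM + 1) scale. Cxcr4 was higher in tdT+ cells in 3 of 3, by 0.44, 0.56 and 0.70 in F2, F3 and M2. Ccr1 was also higher in 3 of 3, by 0.61, 0.33 and 0.18. Both differences were small and of one sign. Ccr2 differed by -1.38, 2.14 and 3.78, the last against the unlabelled library that gave no Ccr2 read, and S100a6 differed by 0.40, -1.14 and 0.59. An exact permutation test over 3 pairs cannot go below p = 0.25 (two-sided), so that the pairs were tested only in edgeR, with the pair as a block. There 0 of the 6 genes were called and 1 (Ccr1) had an unadjusted p under 0.05. The log2 fold change was 0.36 (SE 0.14) for Ccr1, 0.58 (SE 0.65) for Cxcr4 and 2.18 (SE 1.77) for Ccr2, each with an edgeR adjusted p of 1.

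**Figure D2:**
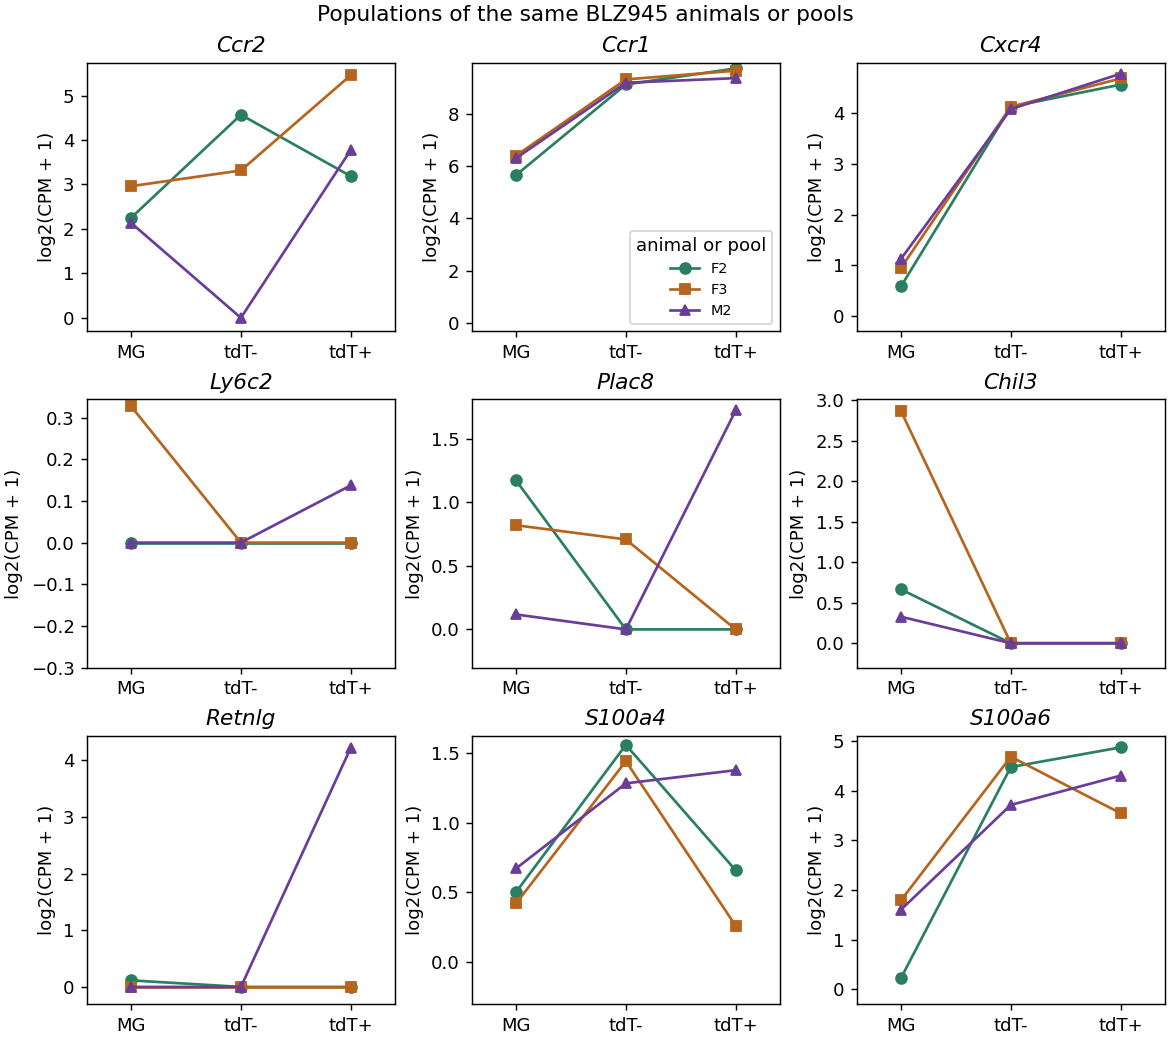
The 9 genes in microglia, tdT- sdCAMs and tdT+ sdCAMs of the 3 BLZ945 animals or pools with all populations, as log2(CPM + 1); lines join libraries of the same animal or pool. Cxcr4 and Ccr1 are higher in tdT+ than in tdT- cells in all 3, by 0.44 to 0.70 and by 0.18 to 0.61, whereas Ccr2 and S100a6 change in both directions.

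Against unlabelled sdCAMs of mice that never lost their macrophages, S100a6 had the lowest p in labelled sdCAMs. Its log2 fold change was 1.80 (SE 0.57, interval 0.59 to 3.01), which did not pass after adjustment (edgeR adjusted p = 0.408, DESeq2 0.0783). It was the only one of the 6 genes whose groups did not overlap, beside 8.16% of all genes. Of the 6 tested, edgeR and DESeq2 called 0, and 1 (S100a6) had an unadjusted p under 0.05, beside a background of 0.283% called (37 genes). Ccr2 gave 0.93 (interval -1.30 to 3.17) on the log2 scale and -0.11 without tdT+ F3, so that its sign rests on that library. Ccr1 gave 0.30 and Cxcr4 0.52. The median was 0.56, beside -0.03 over all genes tested, and 1.17 without tdT- CTL F3. Without tdT+ M2 or F3 it was -0.0087 and 0.26, but over 8 and 9 genes, because more of them passed the filter. The comparisons among sdCAM groups share libraries and are not independent of each other.

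S100a6 also had the lowest p of the 6 genes in the comparison of unlabelled BLZ945 with unlabelled CTL sdCAMs, in which BLZ945 and its repopulation were compared apart from the label. S100a6 was higher in 5 of 5 libraries than in any control, with a log2 fold change of 2.34 (SE 0.53, interval 1.22 to 3.47). Its edgeR adjusted p was 0.304, whereas DESeq2 gave 2.36 with an adjusted p of 0.00256, so that the call rests on the tool. Without F1 it was 1.69 (edgeR adjusted p = 0.478). It was the only one of the 6 genes without overlap, beside 1.84% of all genes. Plac8 gave 4.79 (edgeR adjusted p = 0.835) and 4.06 without F1, with 3 of 5 BLZ945 libraries at or under 0.633 CPM. It passed the filter with the help of F1 and M1, in which it was high, so that little can be read from its test. Ccr2 gave 1.70 (interval -0.32 to 3.72) and 0.38 without F1, S100a4 2.44 and 1.30 without F1, Cxcr4 -0.19 and Ccr1 0.00 (interval -0.40 to 0.41). By edgeR 0 of the 6 were called and 2 had an unadjusted p under 0.05; over all genes 0% were called (0 of 13076), 697 had an unadjusted p under 0.05 and DESeq2 called 62. The median was 2.02 for the 6 and 0.00 for all genes, and 0.84 beside -0.01 without F1. F1 held 67.7% of the Ccr2, 51.3% of the Plac8, 63.8% of the S100a4 and 49.0% of the S100a6 CPM of its group.

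**Figure D3:**
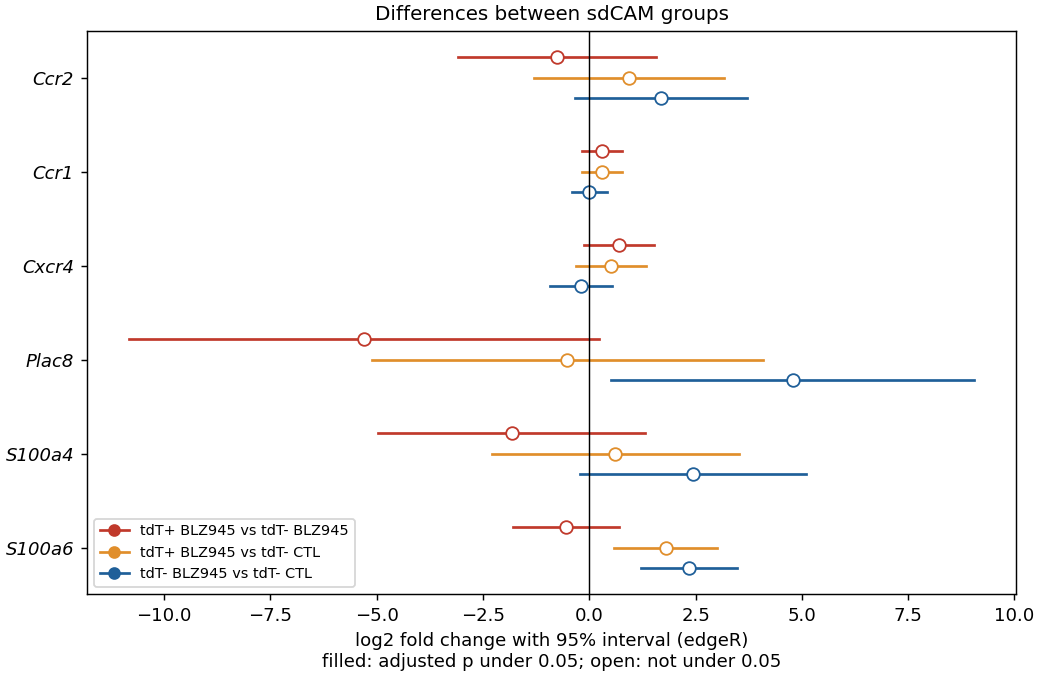
log2 fold changes of the 6 tested genes between sdCAM groups, with 95% intervals from edgeR; open points did not pass an adjusted p of 0.05. No gene passed, and the intervals of S100a6 lie above 0 in both BLZ945 groups against tdT- CTL.

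Against microglia, labelled sdCAMs held more of Ccr1, Cxcr4 and S100a6, and the other 4 genes tested did not pass. The model held all BLZ945 libraries (MG, tdT- and tdT+), tdT- F1 among them. Compared with MG BLZ945, Ccr1 was higher by 3.49 (SE 0.26, edgeR adjusted p = 1.65e-07), Cxcr4 by 5.06 (SE 0.51, edgeR adjusted p = 3.96e-06) and S100a6 by 3.94 (SE 0.81, edgeR adjusted p = 0.00295) on the log2 scale. These 3 of the 7 genes tested passed, beside 18.9% of all genes. Ccr2 gave 2.41 (SE 1.09, interval 0.08 to 4.74), with an edgeR adjusted p of 0.144. Chil3 was at 0 in tdT+ cells and at 0.404, 0.584, 6.28, 3.97 and 0.254 CPM in MG BLZ945 F1, F2, F3, M1 and M2. It passed the filter through MG F3, MG M1 and tdT- BLZ945 F1 (6.11 CPM), none of them a tdT+ library. Without MG F3 or M1 it was no longer tested, so that little can be read from its test (edgeR adjusted p = 0.108, DESeq2 0.0402). Plac8 and S100a4 gave -0.30 and 1.41. The median of the 7 was 2.41, beside -0.01 over all genes.

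Unlabelled sdCAMs carried the same 3 genes above microglia in mice that had received vehicle. Compared with MG CTL, Ccr1 was higher by 3.71 (SE 0.40, edgeR adjusted p = 3.04e-07), Cxcr4 by 5.22 (SE 0.61, edgeR adjusted p = 8.18e-07) and S100a6 by 1.74 (SE 0.64, edgeR adjusted p = 0.0497). The call of S100a6 was lost with the animal as a block (1.84, edgeR adjusted p = 0.0685), without a filter on low counts (edgeR adjusted p = 0.064) and when F1, F2, F3 or M2 of either population was left out (1.60 to 1.73, edgeR adjusted p from 0.0775 to 0.111), but not without M1. These were 3 of 7 genes, beside 25.6% of all genes, and Ccr2 was not among them (0.90, edgeR adjusted p = 0.486). The median was 0.90, beside -0.01.

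After BLZ945, 6 of 7 genes were called higher in unlabelled sdCAMs than in microglia. Over all genes 32.4% were called in either direction, and 2324 of 12697 were called higher. Ccr1 (3.17, edgeR adjusted p = 1.90e-06), Cxcr4 (4.33, edgeR adjusted p = 5.22e-06) and S100a6 (4.46, edgeR adjusted p = 4.29e-05) were again the firmest. Ccr2 (3.17, edgeR adjusted p = 0.00763), Plac8 (5.00, 0.025) and S100a4 (3.23, 0.0391) also passed. These last 3 calls were lost without F1, at 1.85 (edgeR adjusted p = 0.0733), 4.28 (0.0613) and 2.09 (0.173), and with the animal or pool as a block, at 1.91 (edgeR adjusted p = 0.241), 2.02 (0.535) and 2.68 (0.135). Plac8 also lost its call without MG F3, M1 or M2 or tdT- M1 (4.36 to 4.93, edgeR adjusted p from 0.0544 to 0.0602) and S100a4 without any 1 of the MG libraries (2.92 to 3.64, edgeR adjusted p from 0.0529 to 0.093), without a filter (edgeR adjusted p = 0.0843) and in the model of all libraries (0.0513). Chil3 gave -0.91 and was read only in F1 among the 5 tdT- libraries, so that the fit without F1, in which it passed, compares MG with counts of 0. The median of the 7 was 3.23, beside -0.02 over all genes, and 3.09 without F1.

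**Figure D4:**
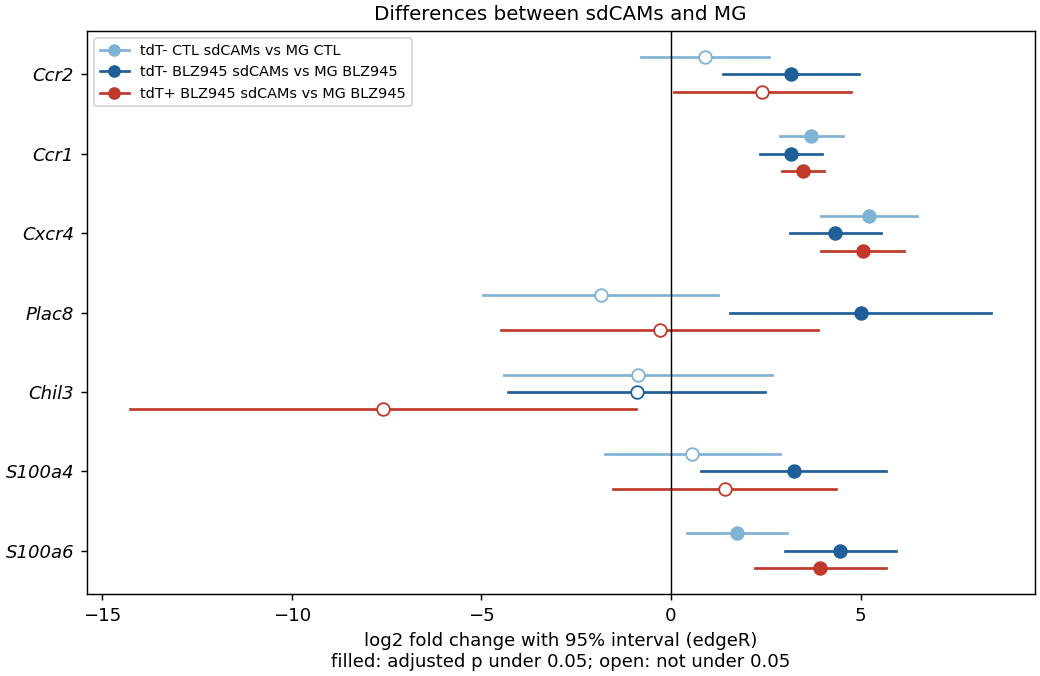
log2 fold changes of the 7 tested genes between sdCAMs and microglia, with 95% intervals from edgeR; filled points passed an adjusted p of 0.05. Ccr1, Cxcr4 and S100a6 are filled in all 3 comparisons, and Ccr2, Plac8 and S100a4 only for tdT- BLZ945 sdCAMs.

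In microglia BLZ945 called none of these genes. By edgeR 0 of 4 tested passed, beside 0.408% of all genes (46 genes), 1 had an unadjusted p under 0.05 and DESeq2 called 0. That gene was Plac8, at 2.10, 4.35, 3.49, 4.67 and 5.28 CPM in MG CTL F1, F2, F3, M1 and M2 and at 2.63, 1.25, 0.764, 0.0883 and 0.0848 CPM in MG BLZ945. Its log2 fold change was -2.08 (SE 0.68, edgeR adjusted p = 0.201), and 1 BLZ945 library overlapped the controls. Ccr1 gave 0.51, Ccr2 -0.58 and S100a6 -0.40, with a median of -0.49 beside 0.00.

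Whether BLZ945 acted differently on these genes in unlabelled sdCAMs and in microglia was asked by an interaction term. Of 7 genes 0 were called by edgeR and by DESeq2, beside 0.0394% of all genes (5 genes), and 2 had an unadjusted p under 0.05. These were S100a6, with an interaction of 2.73 (SE 0.90, edgeR adjusted p = 0.349), and Plac8, with 6.85 (SE 2.21, edgeR adjusted p = 0.346). Without F1 they were 2.08 (edgeR adjusted p = 0.372) and 6.12 (edgeR adjusted p = 0.296). For Ccr2 the interaction was 2.26 (edgeR adjusted p = 0.609), 0.95 without F1 and 0.93 with the animal or pool as a block. The median of the 7 was 2.26 beside -0.03 over all genes, 0.95 without F1 and 0.93 with the block. A difference between the populations in the effect of BLZ945 was thus not shown for any of them.

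Other genes of the monocyte programme were read from a list of 18. In labelled against unlabelled BLZ945 sdCAMs, edgeR called 0 of the 17 tested, 2 had an unadjusted p under 0.05 and the median log2 fold change was -0.03. Among them Ifitm6, an interferon-induced membrane protein, gave -1.05 (edgeR adjusted p = 0.713). Against tdT- CTL, 0 of 17 were called, 4 had an unadjusted p under 0.05 and the median was 0.17; Gda, the guanine deaminase, gave 1.69 (SE 0.46, edgeR adjusted p = 0.23). In unlabelled BLZ945 against CTL sdCAMs 0 were called, 5 had an unadjusted p under 0.05 and the median was 0.43. Against MG, 10 of 16 tested were called higher in tdT- CTL sdCAMs than in MG CTL, 11 of 16 in tdT- BLZ945 and 10 of 17 in tdT+ BLZ945 than in MG BLZ945, beside 1942 of 12697, 2324 of 12697 and 1522 of 12868 genes called higher in all. Its summed level ran from 13547 to 16096 CPM in tdT- CTL, from 14665 to 19266 CPM in tdT- BLZ945 and from 15507 to 19681 CPM in tdT+ sdCAMs, and Lyz2, the macrophage lysozyme, F13a1, the A subunit of coagulation factor XIII, Ms4a6c and Ifitm3 were high in every one of the 13 libraries.

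**Figure D5:**
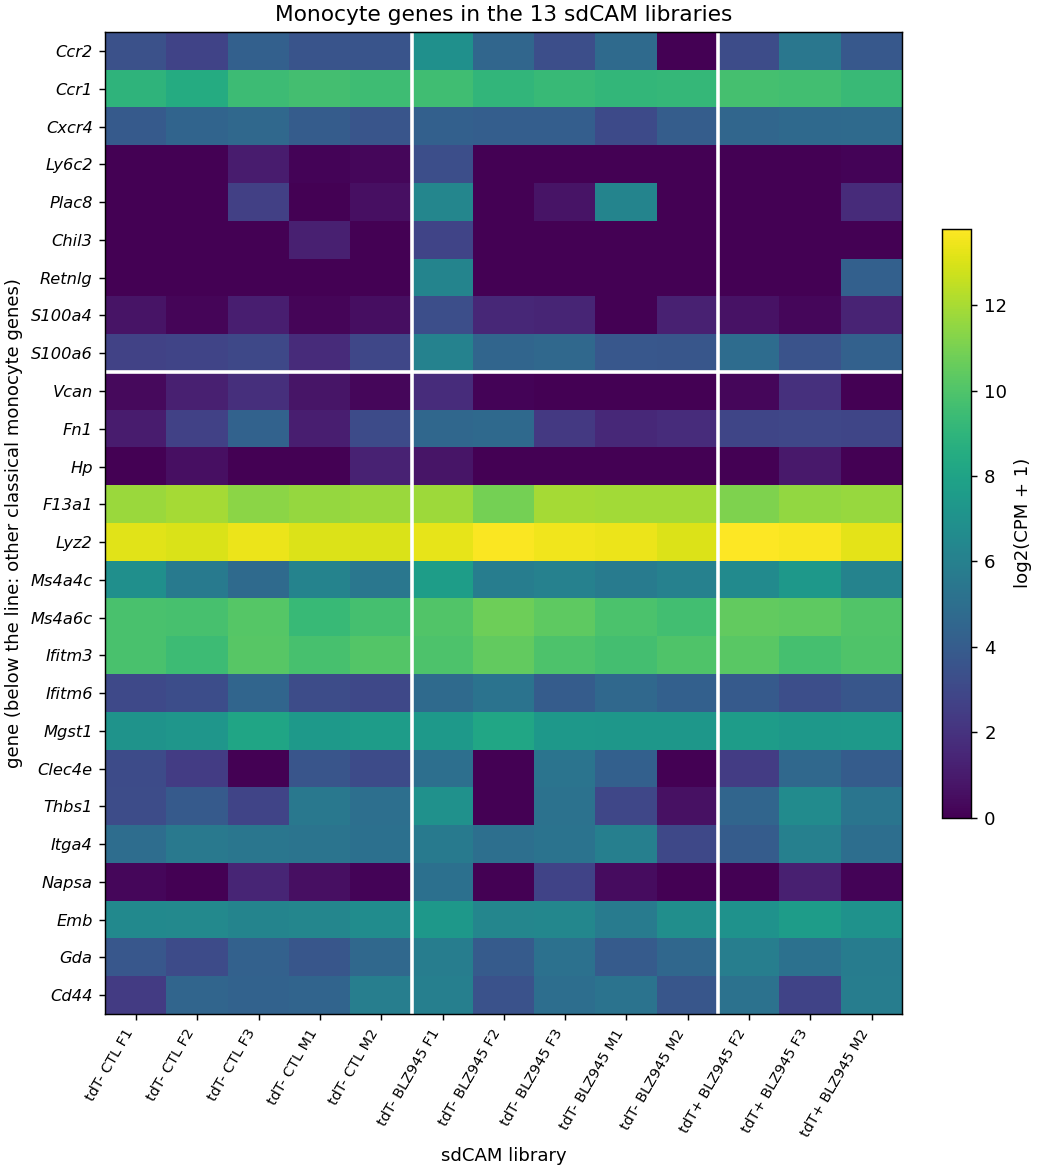
Levels of the 9 genes (above the line) and of 17 other classical monocyte genes (below it) in the 13 sdCAM libraries, as log2(CPM + 1) by colour. Lyz2, F13a1, Ms4a6c and Ifitm3 are high in all groups, whereas Ly6c2, Chil3, Retnlg and Napsa are high mainly in tdT- BLZ945 F1.

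The partners and relatives of the 9 genes gave no calls between sdCAM groups either. Of the 9 ligands of Ccr2, Ccr1 and Cxcr4, all tested, edgeR called 0 in each of the 3 comparisons, with 0, 1 and 1 at an unadjusted p under 0.05. Ccl6, a CC chemokine of mouse myeloid cells, gave 0.77 in tdT+ against tdT- CTL sdCAMs (edgeR adjusted p = 0.54), and Cxcl12, the ligand of Cxcr4, gave -1.22 in tdT+ against tdT- BLZ945 sdCAMs (interval -2.57 to 0.14). Of 20 other chemokine receptors 7 could be tested, and 0 were called in each comparison, with 1 at an unadjusted p under 0.05 in each. That receptor in the comparisons of tdT+ sdCAMs was Cxcr3, at -0.95 and -0.97 on the log2 scale against tdT- BLZ945 and tdT- CTL. Of 10 other S100 genes 6 could be tested and 0 were called, with 0, 1 and 2 at an unadjusted p under 0.05. S100a10, the partner of annexin A2, came nearest in tdT+ against tdT- CTL sdCAMs, at 1.16 (SE 0.25, edgeR adjusted p = 0.0737), and the 6 had a median of 0.90 there. Of 11 genes of non-classical monocytes 10 could be tested and 0 were called, with 3, 1 and 1 at an unadjusted p under 0.05, beside 903, 973 and 697 of all 13076 genes. In tdT+ against tdT- BLZ945 sdCAMs 5 of the 10 had a positive and 5 a negative log2 fold change, with a median of -0.22, and the list summed to between 102 and 660 CPM in tdT+ and between 138 and 465.8 CPM in tdT- BLZ945. Eno3, the muscle enolase, gave 1.20 (edgeR adjusted p = 0.954). Adgre4 was at 0 in all 3 tdT+ libraries and was read in tdT- BLZ945 in F1 and M1, with 200 and 280 counts, and at 0 in the other 3. Itgal, the integrin chain of LFA-1, gave 2, 0 and 3 counts in tdT+ F2, F3 and M2 and 87, 41, 73, 0 and 2 counts in tdT- BLZ945 F1, F2, F3, M1 and M2, which overlap.

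The tdT- BLZ945 library F1 held some further genes of blood and migrating cells beside those described above. Ccr7, the receptor by which dendritic cells reach lymph nodes, gave 425 counts there and at most 7 in any other sdCAM library. Flt3, Trem1 and Cd3e gave 130, 183 and 20 counts there and at most 55, 60 and 1 elsewhere among sdCAMs. Of the 15 neutrophil genes, which include Trem1, 10 were at 0 in F1, among them S100a8, S100a9, Ly6g and Camp, whereas Trem1 and Il1r2 (169 counts) were higher there than in any other sdCAM library. In F1 the neutrophil, dendritic cell and lymphocyte lists summed to 165, 260 and 202 CPM, and 2 of 13, 4 of 7 and 2 of 5 of the genes read in sdCAMs were highest there. Blood transcripts were not confined to F1. Genes of red blood cells summed to 313 CPM in tdT- BLZ945 F2, to 0.643 CPM in F1 and to at most 29.5 CPM in any other sdCAM library. Over all libraries, neutrophil genes summed to 140 to 155 CPM in tdT+, 146 to 264 CPM in tdT- BLZ945 and 129 to 235 CPM in tdT- CTL sdCAMs, dendritic cell genes to 48.0 to 95.2, 57.7 to 260 and 267 to 803 CPM, and lymphocyte genes to 239 to 366, 173 to 247 and 190 to 314 CPM. Of these lists 5, 6 and 3 of the 15 neutrophil genes, 3, 1 and 2 of the 8 dendritic cell genes and 3, 3 and 2 of 7 lymphocyte genes were at 0 throughout those groups. In the dendritic cell list 1 gene averaged a log2 CPM of 7.68 over the sdCAM libraries, and Mmp9 of the neutrophil list averaged 6.82. Both were called higher in tdT- CTL sdCAMs than in MG CTL, so that the sums do not measure numbers of such cells. The gate in the study's methods leaves out cells with Ly6G or CD11c on their surface as well as Ly6C+ cells. The part of such cells in the levels of Ccr2, Plac8 and the S100 genes was not tested.

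Genes whose levels ran most like those of a member across the 13 sdCAM libraries were found by Pearson's r of log2(CPM + 1) over 11138 genes, as a description without a test; the points share libraries and depth. For Ccr2, Pan2 was among the nearest (r = 0.946, Spearman's rho = 0.907) and was the nearest over the 12 libraries without F1 (r = 0.946). For Cxcr4 it was Uvssa (r = 0.871, rho = 0.736), again with and without F1. For S100a6 it was Pfdn2 (r = 0.870, rho = 0.846) with F1 and Pnpla2 (r = 0.909, rho = 0.930) without it, and for Ccr1 Bbln (r = 0.814) with F1 and Tnik (r = 0.839) without it. Plac8 ran most like Adgre4 (r = 0.873, rho = 0.650) with F1 and Epcam (r = 0.899) without it.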

How the data were processed

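Bulk RNA-seq was analysed in 23 libraries of sorted cells. The authors deposited raw counts per gene (bcl2fastq 2.20, STAR 2.7.11a and featureCounts 2.0.6 per the labels, with Gencode M36); the treatment of multi-mapping reads and which of the mouse builds named was used for counting are not given in the sources used here, so no coordinates were taken from the files. The 9 genes and all lists were chosen with earlier results of these data known.

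Differences were tested in R 4.3.3 by edgeR 4.0.16 (TMM, filterByExpr, quasi-likelihood test, Benjamini-Hochberg adjustment over all genes, threshold 0.05). There was 1 model of the 13 sdCAM libraries, 1 of the 10 MG libraries and 1 of the 20 tdT- sdCAM and MG libraries. For tdT+ sdCAMs against MG BLZ945 the model held all BLZ945 libraries (MG, tdT- and tdT+). DESeq2 1.42.0, other filters and size factors, a model of all libraries, a replicate block and leaving out each library were alternatives. Named list genes are up to 3 per list with the largest absolute log2 fold change among those with an average log2 CPM of at least 1, in each comparison of tdT+ sdCAMs, of which those nearest to the 9 genes are given; genes named for library F1 and the genes called high in every sdCAM library were chosen after their values were seen. Some genes of the lists and of the comparison of patterns are counted but not reported here. The code was tested on simulated data.

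Within a treatment the same replicate label meant the same animal or pool. Deviations from group means correlated at a mean r of 0.0736 for tdT+ with tdT- BLZ945, 0.118 for tdT- with MG CTL, 0.0906 for tdT- with MG BLZ945 and 0.142 for tdT+ with MG BLZ945. Replicates were separate animals or pools by their labels, except that BLZ945 F2 and M1 may share a mouse; p-values treat them as independent.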

Additional observations from a re-analysis of the deposited data

Results flagged for a closer look

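Values of the 9 genes were examined for libraries far from the rest of their group in the groups of 5, 34 sets of values in all; groups of 3 were not examined. In 10 of them the gap between the extreme library and its neighbour took an unusually large share of the range. A rate of about 1 in 20 by chance does not hold for sets with 4 of 5 libraries at 0. There the gap is always the whole range. In tdT- BLZ945, F1 was far above its group for Ly6c2 (8.79 CPM), Chil3 (6.11 CPM) and Retnlg (74.1 CPM), each at 0 in the other 4 libraries. In the same group M1 was lowest for Cxcr4, at 7.71 CPM.

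In tdT- CTL, F3 was highest for Ly6c2 (1.10 CPM) and Plac8 (5.21 CPM), and M1 was highest for Chil3 (1.32 CPM) and lowest for S100a6 (2.25 CPM). In MG BLZ945, F3 was highest for Ccr2, at 6.79 CPM, and F2 held the only count of Retnlg, at 0.0835 CPM, which is under the floor of 3 counts.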

How the results depend on the processing

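Of 265 values of single genes under other settings, 248 kept direction and side of the threshold, 7 lost and 2 gained significance and 8 changed sign; of 530 values with 1 library left out, 484 did, 20 lost and 1 gained significance and 25 changed sign. The cause of changes was not tested. With DESeq2, 1 gene (S100a6) was called in tdT- BLZ945 against tdT- CTL sdCAMs. With at least 10 counts in every library, where fewer genes were tested, 1 gene was called in each sdCAM comparison with MG.

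With the replicate block, 3 genes were called in tdT- BLZ945 sdCAMs against MG BLZ945. Across treatments the replicate labels pair no animals. The block turned Ccr2 to 2.18 and Plac8 to 0.85 in tdT+ against tdT- BLZ945, Plac8 to 1.19 in tdT+ against tdT- CTL and Plac8 to 0.66 in tdT+ sdCAMs against MG; beside the block results given with the comparisons it changed no other call of the 9 genes.

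Ccr1 in tdT- BLZ945 against tdT- CTL, 0.00, was -0.0102 without a filter, -0.0154 with 10 counts in every library and -0.0087 in the model of all libraries. The interaction of Chil3 was 0.0121 with DESeq2.

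With each library left out in turn, the number of the 9 genes called ranged from 2 to 3 in tdT- CTL against MG CTL, from 4 to 6 in tdT- BLZ945 against MG BLZ945 and from 3 to 3 in tdT+ against MG BLZ945, and was 0 elsewhere (0 to 0). Values that changed sign ranged, in tdT+ against tdT- BLZ945, from -1.79 to 0.55 for Ccr2 and from -0.90 to 0.11 for S100a6; in tdT+ against tdT- CTL, from -0.11 to 1.32 for Ccr2, from -6.59 to 2.57 for Plac8 and from -0.41 to 1.17 for S100a4; in tdT- BLZ945 against tdT- CTL, from -0.14 to 0.13 for Ccr1; in MG, from -0.81 to 0.000902 for S100a6; in tdT- CTL against MG CTL, from -0.0143 to 1.33 for S100a4; in the interaction, from -6.85 to 4.59 for Chil3; and in tdT+ against MG BLZ945, from -6.34 to 0.45 for Plac8.

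Counts over all genes depended on the tool: DESeq2 called 174 against 27 by edgeR in tdT+ against tdT- BLZ945, 215 against 37 in tdT+ against tdT- CTL, 62 against 0 in tdT- BLZ945 against tdT- CTL, 268 against 46 in MG and 102 against 5 in the interaction. The model of all libraries called 82, 121, 29, 12 and 1 in the same order. Without a filter, tdT+ against tdT- CTL gave 61, MG 193 and the interaction 9, which was 0 with 10 counts in every library. The block gave 6 in tdT+ against tdT- BLZ945, 89 in MG and 1 in the interaction. Leaving out a library gave as few as 16 in tdT+ against tdT- BLZ945 (tdT+ F2) and 21 in tdT+ against tdT- CTL (tdT+ F2), 22 to 102 in MG (CTL F2 or M1, CTL M2) and 0 to 36 in the interaction (MG CTL F2 or M1, tdT- BLZ945 F1). Depth did not limit Ccr1, Ccr2, Cxcr4 or S100a6 in sdCAMs, except in the 1 library without a Ccr2 read; Ly6c2, Chil3 and S100a4 lay near the floor of 3 counts in most libraries.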
